A study of Mus musculus with 6 samples.

Results

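Genes for 10 amino acid transporters (*Slc7a5*, *Slc3a2*, *Slc1a5*, *Slc1a4*, *Slc7a1*, *Slc7a6*, *Slc7a11*, *Slc38a1*, *Slc38a2* and *Slc43a1*) were described in immature NK cells with and without a floxed *Myc* gene. They were chosen by name, because their products carry amino acids across the plasma membrane, and make up 10 of the 25690 gene symbols in the data. RNA-seq had been done on CD27 single-positive (CD27SP) NK cells, the immature subset sorted from BM as NK1.1+CD27+CD11b-CD3- cells. Of the 6 libraries, 3 came from *Ncr1cre Myc* wt/wt mice and 3 from *Ncr1cre Myc* fl/fl mice, and each genotype has the replicate numbers 1, 2 and 4. Both genotypes carry the Cre recombinase, which is expressed from the *Ncr1* locus and therefore acts once a cell has begun to express NKp46, so that a sorted cell may have lost *Myc* only recently or not yet. The mice had been bred onto C57BL/6 and were matched for sex and age by the study's methods; the labels give neither, and they do not say whether a library was made from 1 mouse or from several. The p-values therefore measure the spread between these libraries.

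Cells take up amino acids through carriers that differ in substrate and mechanism. Slc7a5 (LAT1) exchanges large neutral amino acids such as leucine and works only as a pair with the glycoprotein Slc3a2 (CD98), which carries it to the cell surface. Glutamine and other small neutral amino acids enter through sodium-coupled carriers of the Slc1 and Slc38 families, and the glutamine so gained can be traded outward by Slc7a5 for leucine, which activates mTORC1. In activated lymphocytes, *Slc7a5* is known as a gene that depends on Myc, and *Myc* translation in turn needs amino acid supply.

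Total estimated counts lay between 54550907 and 64962491 in 5 of the libraries and at 8101219 in wt/wt replicate 1, so the low members were measured least well there. *Myc* itself, the check of the genotype, had 200, 183 and 164 TMM-normalized CPM (counts scaled to library size) in the wt/wt libraries and 61.5, 64.6 and 76.5 in the fl/fl libraries. This was a log2 fold change of -1.44 ± 0.15 (SE, n = 3 per genotype), with an adjusted p of 0.00189 by edgeR with Benjamini-Hochberg adjustment, and left 37.0% of the wt/wt mean. Without replicate 1 the adjusted p was 0.0105, just short of the limit of 0.01 used here. The 13 NK cell markers had a summed TPM (a share of transcripts corrected for length) of 18251 to 19520 in wt/wt and of 21530 to 23502 in fl/fl. None of them passed the test by edgeR, 5 having an unadjusted p and 1 an adjusted p under 0.05. The genotypes did not overlap in CPM for 2 lower and 4 higher markers, beside 15.1% and 16.2% of all genes. *Gzma* had 2533 to 3284 TPM in wt/wt and 1575 to 2442 TPM in fl/fl. *Gzmb* went from 157 to 193 TPM up to 356 to 1495 TPM, and *Prf1* from 309 to 450 TPM up to 572 to 1298 TPM. Markers of several other cell types were higher in fl/fl: the summed TPM of 10 erythroid markers ran from 148 to 914 in wt/wt and from 1876 to 3992 in fl/fl, that of 11 neutrophil and progenitor markers from 74.3 to 156 and from 543 to 911, that of 10 basophil and mast cell markers from 58.4 to 64.3 and from 201 to 509, and that of 8 monocyte markers from 1166 to 1357 and from 2016 to 2357. Nearly all of the monocyte sum lay on *Ly6c2*, *Ccr2* and *Irf8*, which had 238 to 440, 512 to 641 and 274 to 304 TPM in wt/wt. The other genes of that list had at most 9.28 TPM in wt/wt and 27.6 TPM in fl/fl. The sum of 8 B cell markers was low, from 4.50 to 9.75 TPM in wt/wt and from 14.3 to 19.3 TPM in fl/fl. The sums of 6 T cell markers overlapped, from 326 to 679 and from 415 to 530 TPM, and the mast cell protease gene *Cma1* went against its list, with 19.9 to 26.9 TPM in wt/wt and at most 8.26 TPM in fl/fl. All 10 erythroid markers lay higher in every fl/fl library than in any wt/wt library, and no marker of these lists was at 0 in all libraries. Mature neutrophils and most monocytes carry CD11b, which the sort gated against. In such bulk libraries, fewer cells of a type and less RNA per cell cannot be told apart, and the part of these other cells in the values below was not tested.

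To pass the test, a gene needed an adjusted p below 0.01 together with a log2 fold change of 0.5 or more in either direction. Among the 10 transporter genes, *Slc7a5* alone did so, and it fell. In the background of all 15474 genes tested, 0.872% passed as lower in fl/fl and 1.28% as higher, 2.15% in all. The log2 fold changes of the 10 genes ran from -1.53 to 1.30, with 5 below and 5 above 0 and a median of -0.13, where the median of all genes tested was 0.014. The members' median was not stable, at 0.010 without replicate 1 and -0.26 with at least 10 counts in every library. In 6 of the 10 genes the libraries of the genotypes did not overlap in CPM, 4 of them lower and 2 higher in fl/fl, whereas 15.1% and 16.2% of all genes did so in these directions. Under the looser limit of an adjusted p below 0.05 alone, *Slc7a5*, *Slc7a6* and *Slc43a1* were past it, beside 3.38% of all genes in the lower and 4.45% in the higher direction.

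**Figure D1:**
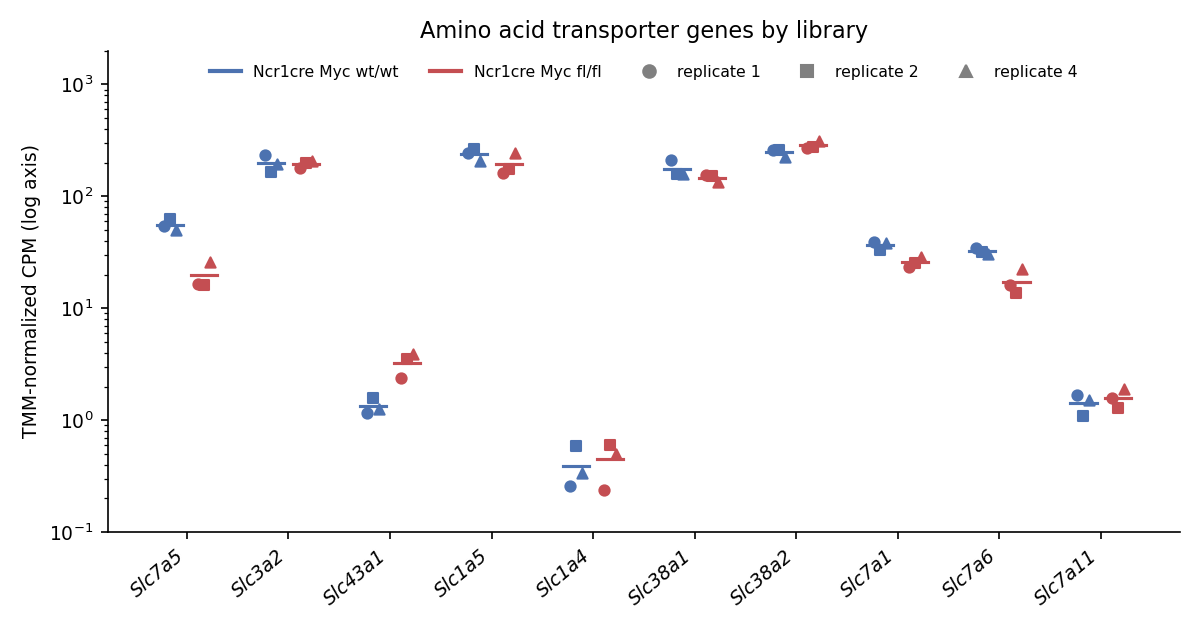
TMM-normalized CPM on a log axis for each transporter gene, with 1 point per library, the shape giving the replicate number and the horizontal bars the mean of each genotype (n = 3). *Slc7a5*, *Slc7a6* and *Slc7a1* lie lower in every fl/fl library than in any wt/wt library, *Slc43a1* lies higher, and the points of *Slc3a2* overlap.

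The large neutral amino acid exchanger came first. *Slc7a5* lies on chr8:121881150-121907694, on the minus strand of GRCm38. It had 54.7, 62.3 and 50.1 CPM in the wt/wt libraries and 16.6, 16.3 and 26.0 CPM in the fl/fl libraries. Every fl/fl library was thus below every wt/wt library, with fl/fl replicate 4 the nearest to them. The mean went from 55.7 ± 6.18 to 19.6 ± 5.51 CPM (SD, n = 3), which is 35.3% of the wt/wt mean. The log2 fold change was -1.53 ± 0.20 (SE, 95% interval -1.99 to -1.07), with an adjusted p of 0.00392 by edgeR with Benjamini-Hochberg adjustment. By p-value it ranked 95 among all genes tested. At least 99.6% of its counts in each library were assigned to a single coding transcript of 10 exons, ENSMUST00000045557, so the fall in the gene was a fall in that transcript. The direction held in 14 of 14 alternative analyses, with log2 fold changes from -1.85 to -1.31, but the gene no longer passed the test without replicate 1 (adjusted p = 0.0228), without replicate 2 (0.0105), with scaling to library size only (0.0111) or with offsets from effective lengths (0.0153), all by edgeR.

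The partner of Slc7a5 had a fold change near 0. *Slc3a2* (chr19:8706882-8723369), the heavy chain that Slc7a5, Slc7a6 and Slc7a11 share, had 232, 165 and 194 CPM in wt/wt and 180, 198 and 207 CPM in fl/fl. The groups overlapped, the log2 fold change was 0.00 ± 0.15 (SE, 95% interval -0.34 to 0.34), and the adjusted p was 1.00 by edgeR. Its sign turned between alternative analyses, as the interval allows. Levels of different genes were compared per length, in TPM. On that scale *Slc7a5* stood at 0.0414, 0.127 and 0.0738 of *Slc3a2* in the wt/wt libraries and at 0.0259, 0.0258 and 0.0366 in the fl/fl libraries. The groups did not overlap, and the log2 ratio was lower by a mean difference of -1.33 in fl/fl, or of -0.84 without replicate 2. The exact two-sided permutation test over libraries gave p = 0.10, the lowest value possible with 3 libraries per genotype, and an adjusted p of 0.15 over the 3 pairs compared.

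The transcripts of *Slc3a2* were not quantified alike in all libraries. In wt/wt replicate 1, its 515 TPM included 256 TPM on a 402-base coding transcript, ENSMUST00000205538, that had at most 48.7 TPM in any other library. The main coding transcript of 9 exons, ENSMUST00000010239, had 86.2, 83.8 and 92.7 TPM in wt/wt and 96.7, 107 and 111 TPM in fl/fl. Taking only the main coding transcript of each gene, an alternative added after the data were seen, *Slc7a5* stood at 0.247, 0.330 and 0.233 of *Slc3a2* in wt/wt and at 0.0807, 0.0687 and 0.107 in fl/fl. The difference in log2 ratio was then -1.67, with the same exact permutation p of 0.10.

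*Slc43a1* (chr2:84838850-84863594), which encodes the sodium-independent neutral amino acid carrier LAT3 and needs no heavy chain, was low in both genotypes. It had 1.17, 1.58 and 1.27 CPM in wt/wt, from 9, 89 and 83 counts, and 2.38, 3.53 and 3.92 CPM in fl/fl, from 140, 193 and 234 counts. Every fl/fl library lay above every wt/wt library. The log2 fold change was 1.30 ± 0.34 (SE, 95% interval 0.53 to 2.07) and the adjusted p 0.0488 by edgeR, so the gene did not pass the test. In 13 alternative analyses the log2 fold change stayed above 0, with adjusted p from 0.0140 to 0.287. Among the fl/fl libraries, *Slc43a1* had its highest value in replicate 4 at 3.92 CPM, whereas the summed erythroid markers were lowest there at 1876 TPM and reached 3777 and 3992 TPM in replicates 1 and 2, where *Slc43a1* stood at 2.38 and 3.53 CPM. The summed neutrophil and progenitor markers were highest in replicate 4, at 911 TPM against 561 and 543 TPM in replicates 1 and 2. The part of RNA from other cells in the *Slc43a1* values was not tested.

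**Figure D2:**
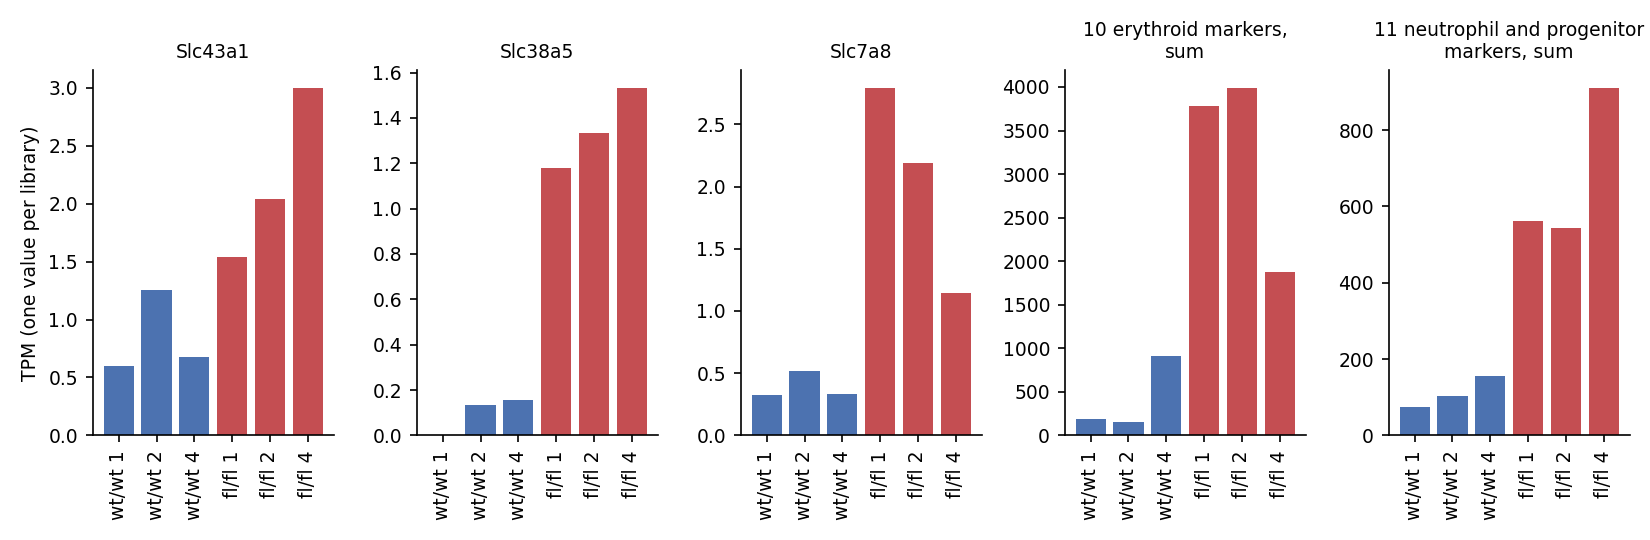
TPM in each library of *Slc43a1*, of *Slc38a5* and *Slc7a8* (2 further amino acid carriers described below), and of the sums of 10 erythroid and of 11 neutrophil and progenitor markers, with 1 bar per library and a separate axis from 0 in each panel. All 5 are higher in each fl/fl library than in any wt/wt library, and *Slc43a1*, *Slc38a5* and the neutrophil and progenitor sum are highest in fl/fl replicate 4, where the erythroid sum and *Slc7a8* are lowest among the fl/fl libraries.

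The sodium-coupled carriers of glutamine and small neutral amino acids did not pass the test. *Slc1a5* (chr7:16781340-16798274), which encodes the glutamine carrier ASCT2, had 242, 266 and 208 CPM in wt/wt and 163, 175 and 245 CPM in fl/fl. The fl/fl replicates 1 and 2 were below all wt/wt libraries and replicate 4 was not. A retained-intron transcript, ENSMUST00000127401, took 37.7% to 61.5% of these counts. The only coding transcript, ENSMUST00000108496, had 33.2, 86.0 and 64.3 TPM in wt/wt and 59.9, 59.1 and 77.4 TPM in fl/fl. Its libraries overlapped, with means of 61.2 and 65.5 TPM, so it was not lower in fl/fl. The log2 fold change of the whole gene was -0.32 ± 0.18 (SE, 95% interval -0.72 to 0.09), with an adjusted p of 0.345 by edgeR. The size rested on single replicate numbers, at -0.61 without replicate 4, -0.16 without replicate 2 and -0.19 without replicate 1. Its close relative *Slc1a4* (chr11:20302180-20332713), which encodes the serine and alanine carrier ASCT1, was hardly detected, with 2, 33 and 22 counts in wt/wt and 14, 33 and 30 in fl/fl. The interval of its log2 fold change, from -1.03 to 1.49 around 0.23, included changes of either sign, so no difference was detectable at this depth. In TPM, *Slc1a5* was 760 and 1034 times as high as *Slc1a4* in wt/wt replicates 2 and 4 and 474 to 1133 times as high in fl/fl, and these ratios overlapped. In wt/wt replicate 1 the ratio was 2210, but rests on 2 counts of *Slc1a4*. The exact permutation p was 0.50, and 0.90 without that library.

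The SNAT carriers, *Slc38a1* and *Slc38a2*, lie near each other on chromosome 15 and had log2 fold changes of opposite sign, neither past the test. *Slc38a1* (chr15:96571418-96642913) had 213, 157 and 160 CPM in wt/wt and 154, 151 and 133 CPM in fl/fl. The lowest wt/wt library was just above the highest fl/fl library, and the log2 fold change was -0.26 ± 0.14 (SE, 95% interval -0.57 to 0.05, adjusted p = 0.312 by edgeR), or -0.13 without wt/wt replicate 1 and without the replicate block, and -0.16 without replicate 1. *Slc38a2* (chr15:96687392-96699730), a carrier known to be induced when amino acids run short, had 261, 259 and 227 CPM in wt/wt and 273, 279 and 313 CPM in fl/fl. Here all fl/fl libraries were above all wt/wt libraries, with a log2 fold change of 0.21 ± 0.14 (SE, 95% interval -0.10 to 0.52, adjusted p = 0.433 by edgeR), or 0.065 without replicate 4. In TPM, the ratio of *Slc38a1* to *Slc38a2* was 0.506, 0.379 and 0.446 in wt/wt and 0.357, 0.339 and 0.265 in fl/fl. The groups did not overlap in this ratio and the mean difference in log2 ratio was -0.47, with an exact permutation p of 0.10. With 1 transcript of *Slc38a1* in place of the gene, in alternatives added later, the difference depended on which one was taken. It was 0.035 (exact permutation p = 0.50) with ENSMUST00000100262, which had the most counts over the 6 libraries, and -0.91 (p = 0.10) with ENSMUST00000088452, which had the highest mean TPM.

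*Slc38a1* is transcribed from several first exons. Its 3 transcripts have the same 1455 coding bases and 16 exons each, and begin at different first exons. ENSMUST00000088452, whose first exon lies at chr15:96642491-96642913, took 56.1%, 48.2% and 44.2% of the gene's estimated counts in wt/wt and 35.7%, 37.5% and 34.7% in fl/fl. ENSMUST00000100262, whose first exon lies at chr15:96641054-96641962, took 31.8%, 35.7% and 36.2% in wt/wt and 47.3%, 47.5% and 50.9% in fl/fl. The groups did not overlap in either share, the upstream start being lower by 13.5 percentage points and the downstream one higher by 14.0. The third transcript, ENSMUST00000088454, had a mean share of 15.9% ± 3.76 in wt/wt and of 15.5% ± 1.38 in fl/fl (SD, n = 3). The tables give ENSMUST00000100262 a length of 7752 bases, against 3183 in the annotation used here, so its share rests on a longer model of that transcript.

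Transcript shares were looked at in all members for which the gene had at least 100 counts in every library and the transcript a mean share between 10% and 90%. There were 13 such transcripts, and the genotypes did not overlap for 5 of them, beside 11.9% of the 11932 transcripts of all genes that met these limits. Apart from the pair in *Slc38a1*, these were ENSMUST00000010239 of *Slc3a2*, whose mean share went from 51.7% to 56.9%, its retained-intron transcript ENSMUST00000206895, from 26.7% to 23.2%, and a single-exon retained-intron transcript of *Slc7a1*, ENSMUST00000201348, from 8.18% to 18.2%. The last met the limit of 10% only through fl/fl, where it is high, and with the limit held in each genotype 4 of 12 transcripts of the members did not overlap, beside 11% of the 10898 transcripts of all genes. The shares within a gene add up to the whole, so they are not independent of each other. They were described after the values were seen and were not tested.

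**Figure D3:**
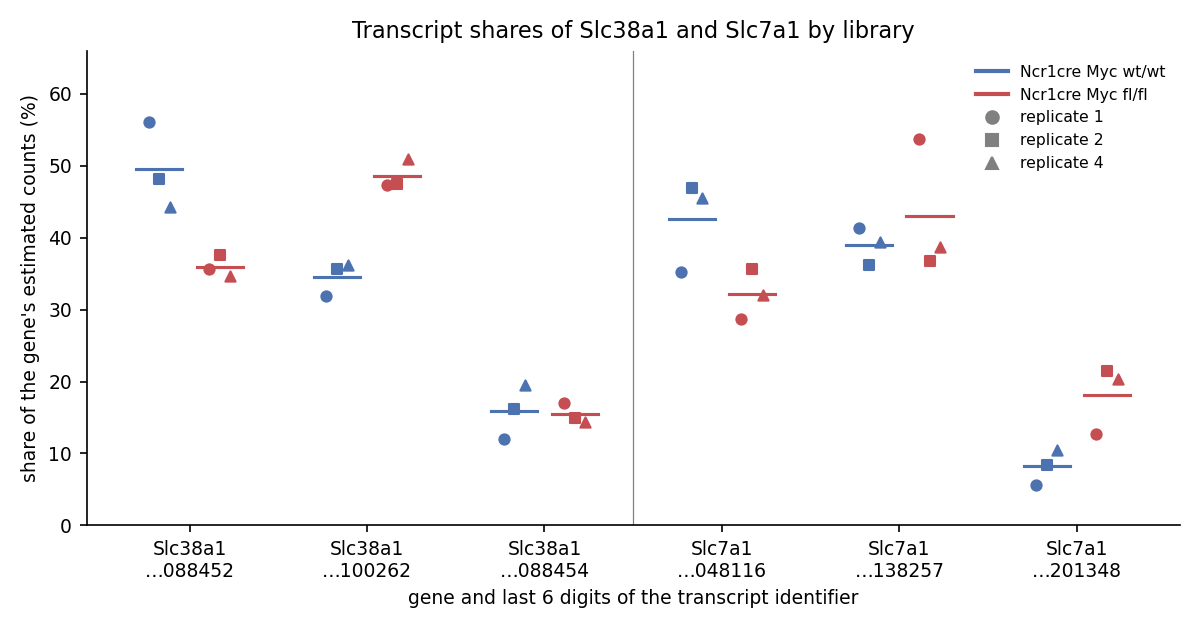
Share of the gene's estimated counts, in percent, for 3 transcripts each of *Slc38a1* and *Slc7a1*, with 1 point per library and the mean of each genotype as a bar (n = 3). For *Slc38a1* ENSMUST00000088452 lies between 34.7% and 37.5% in fl/fl against 44.2% to 56.1% in wt/wt, and ENSMUST00000100262 shows the opposite order.

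The carriers of basic amino acids were both lower in every fl/fl library without passing the test. *Slc7a6* (chr8:106168857-106198706), which encodes the y+LAT2 exchanger of basic and neutral amino acids and also pairs with Slc3a2, had 34.7, 32.0 and 30.6 CPM in wt/wt and 16.1, 13.6 and 22.3 CPM in fl/fl. Replicate 4 was again the highest of the fl/fl libraries. The mean was 53.5% of that in wt/wt, the log2 fold change -0.93 ± 0.20 (SE, 95% interval -1.37 to -0.49), and the adjusted p 0.0221 by edgeR. The direction held in 14 of 14 alternative analyses, and 3 of them took the gene past the limits used, among them DESeq2 with an adjusted p of 0.000444. By edgeR, the adjusted p rose to 0.0926 without replicate 1, 0.0891 without replicate 2 and 0.0624 with effective lengths.

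*Slc7a1* (chr5:148327410-148399904), which encodes the arginine and lysine carrier CAT1, had 39.2, 33.2 and 38.0 CPM in wt/wt and 23.2, 25.2 and 29.0 CPM in fl/fl. These groups did not overlap either. The log2 fold change was -0.51 ± 0.16 (SE, 95% interval -0.87 to -0.15), with an adjusted p of 0.0888 by edgeR. Its full-length coding transcript, ENSMUST00000048116, took 35.3%, 46.9% and 45.5% of the gene's counts in wt/wt and 28.7%, 35.7% and 32.1% in fl/fl, which overlap. The retained-intron transcript took 5.62%, 8.44% and 10.5% in wt/wt and 12.7%, 21.5% and 20.3% in fl/fl, a description of a transcript that met the share limit only through fl/fl.

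*Slc7a11* (chr3:49892526-50443614), which encodes the cystine and glutamate exchanger xCT and is a known target of ATF4, had 1.69, 1.08 and 1.53 CPM in wt/wt and 1.58, 1.28 and 1.91 CPM in fl/fl. The groups overlapped, and the log2 fold change was 0.17 ± 0.37 (SE, 95% interval -0.65 to 1.00, adjusted p = 0.846 by edgeR). Most of these counts, 88.9% to 100% in each library, were assigned to a retained-intron transcript, ENSMUST00000142932. The coding transcript ENSMUST00000029297 had at most 6.16 estimated counts in any library, so the level of mRNA that could give xCT was not measured well here.

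**Figure D4:**
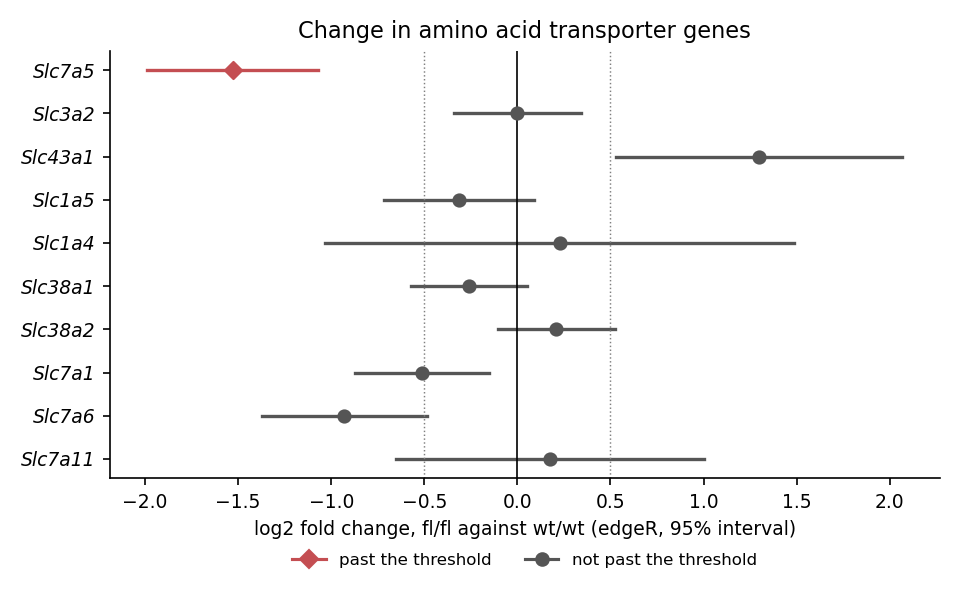
Log2 fold change of each transporter gene in fl/fl against wt/wt with its 95% interval by edgeR (n = 3 per genotype), where dotted lines mark the threshold of 0.5 in either direction. The interval of *Slc7a5* lies between -1.99 and -1.07, that of *Slc3a2* spans 0 within 0.34 on either side, and that of *Slc1a4* is the widest.

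By level per length, the 10 genes in wt/wt began with *Slc3a2* at 345 ± 152 TPM, *Slc1a5* at 163 ± 33.9 TPM and *Slc38a2* at 70.3 ± 6.87 TPM (SD, n = 3). The libraries of these 3 genes did not overlap in these sums over all transcripts. By the main coding transcript, *Slc1a5*, from 33.2 to 86.0 TPM, overlapped both *Slc3a2*, from 83.8 to 92.7 TPM, and *Slc38a2*, from 63.2 to 76.9 TPM. Below these 3 genes by sum, *Slc38a1* at 31.0 ± 4.11 TPM, *Slc7a6* at 28.3 ± 6.27 TPM, *Slc7a1* at 25.0 ± 6.71 TPM and *Slc7a5* at 23.9 ± 3.94 TPM overlapped, so their order among themselves lies within the spread. *Slc43a1* at 0.847 ± 0.359 TPM, *Slc7a11* at 0.516 ± 0.0998 TPM and *Slc1a4* at 0.144 ± 0.0684 TPM came last. In fl/fl these 4 genes no longer all overlapped. *Slc38a1*, from 24.7 to 29.5 TPM, lay above every library of the other 3, and *Slc7a5* stood at 9.01 ± 2.49 TPM, from 7.35 to 11.9, below every library of *Slc7a6*, which ran from 14.3 to 21.3 TPM, and of *Slc7a1*, which ran from 16.4 to 19.7 TPM. The order of the 3 highest and of the 3 lowest genes by mean was as in wt/wt. These gene levels are sums that include short and non-coding transcripts. By the longest coding transcript alone, the fl/fl means were 9.01 TPM for *Slc7a5*, 3.24 TPM for *Slc7a6* and 1.63 TPM for *Slc7a1*. Another coding transcript of *Slc7a1*, ENSMUST00000138257, had a mean of 10.3 TPM. The order of these genes thus depends on the transcripts taken. Summed over all 10 genes, the level was 688 ± 178 TPM in wt/wt and 591 ± 64.3 TPM in fl/fl, and the libraries overlapped. The wt/wt libraries had 894, 583 and 589 TPM and the fl/fl libraries 546 to 664 TPM, so the higher wt/wt mean rested on replicate 1. That library held 256 TPM on the 402-base transcript of *Slc3a2*.

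The genes with profiles most like that of *Slc7a5* were sought by the root mean square difference in log2 CPM over the 6 libraries, each gene centred on its own mean, among 9779 genes with a mean of at least 5 CPM. *Myc* was the nearest of all, at 0.165. *Mettl1*, which encodes a tRNA methyltransferase, was next at 0.194, with 16.0, 13.7 and 14.9 CPM in wt/wt and 3.88, 5.21 and 6.77 CPM in fl/fl. It fell by 1.51 on the log2 scale (adjusted p = 0.00756 by edgeR, but 0.0292 without replicate 1 and 0.0258 without replicate 2). *Padi4*, which encodes a peptidylarginine deiminase, followed at 0.220, with a log2 fold change of -1.29, which did not pass the test (adjusted p = 0.0123 by edgeR). Among the other transporter genes, *Slc7a6* ranked 39 at 0.321 and *Slc7a1* ranked 586 at 0.550, while *Slc3a2* ranked 4771 at 0.813. Over 6 libraries this measure of likeness includes the difference between the genotypes, which *Myc*, *Mettl1* and *Padi4* share with *Slc7a5*.

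**Figure D5:**
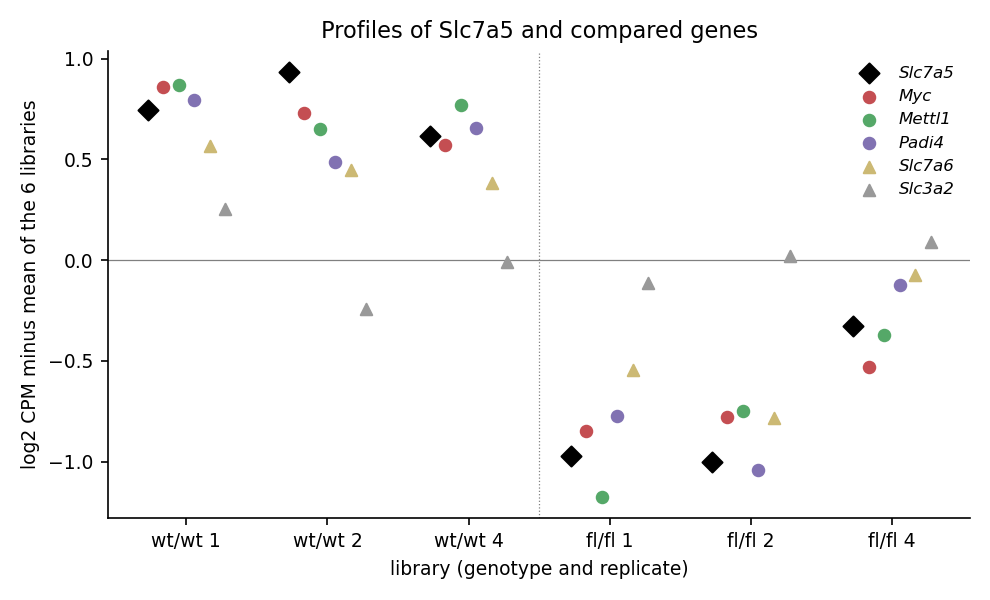
Log2 CPM minus the gene's mean over the 6 libraries, for *Slc7a5* (diamonds), the 3 genes with the nearest profiles (circles), and *Slc7a6* and *Slc3a2* (triangles), with libraries along the horizontal axis. *Slc7a5* and *Myc* are above their means in the 3 wt/wt libraries and below in the 3 fl/fl libraries, with fl/fl replicate 4 the least low, whereas *Slc3a2* stays near its mean.

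Promoter sequence of 250 bases before and 50 after the start, taken from RefSeq on GRCm38.p6, was found for 7 of the 10 genes, in 9 windows. *Slc7a5*, *Slc1a5* and *Slc38a1* were not among them. The windows were searched on both strands for CACGTG, the E-box that Myc and its partner Max bind, and for TGATGNAA, the core of the element that ATF4 and C/EBP proteins bind in amino acid response genes. The motifs can share 2 letters where one follows the other, but no window of a member held both. Of all 32851 promoter windows, 7.15% held the E-box and 3.97% the other motif. The upstream sequence is shown for *Slc7a6*, the member with the second lowest log2 fold change, and for *Slc38a2*, which lay higher in all fl/fl libraries. It covers chr8:106168604-106168853 on the plus strand and chr15:96699731-96699978 on the minus strand, and neither window held either motif, so no letters are in capitals.
Slc7a6: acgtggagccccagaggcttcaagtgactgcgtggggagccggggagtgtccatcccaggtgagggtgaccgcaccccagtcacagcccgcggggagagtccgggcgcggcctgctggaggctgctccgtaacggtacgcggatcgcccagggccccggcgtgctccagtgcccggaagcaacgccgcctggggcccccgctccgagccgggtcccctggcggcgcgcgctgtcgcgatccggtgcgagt
Slc38a2: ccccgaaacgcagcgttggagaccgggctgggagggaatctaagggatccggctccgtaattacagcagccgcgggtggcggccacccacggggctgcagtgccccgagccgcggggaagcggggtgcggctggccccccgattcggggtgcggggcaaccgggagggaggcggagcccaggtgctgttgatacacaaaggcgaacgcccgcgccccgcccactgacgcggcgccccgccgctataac

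Matches were present in 3 members, which are shown for that reason with the motif in capitals, in either orientation. *Slc7a11* held TGATGNAA at 2 places, with first bases 66 and 47 bases before the start, in chr3:50443614-50443713 on the minus strand. *Slc1a4* held it once, across the start, in chr11:20332690-20332763 on the minus strand. *Slc43a1* held the E-box once, 64 bases before the start, in chr2:84840247-84840276 on the plus strand, a place that is exonic in another transcript of the gene, ENSMUST00000111624.
Slc7a11: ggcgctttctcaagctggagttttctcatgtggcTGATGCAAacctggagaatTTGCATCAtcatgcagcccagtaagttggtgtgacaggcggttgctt
Slc1a4: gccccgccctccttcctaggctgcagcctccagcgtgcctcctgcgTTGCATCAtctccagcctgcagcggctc
Slc43a1: agggtctccctcCACGTGgcagccgtggga
The genes that hold the ATF4 motif here are the pair whose genotypes overlapped at low counts, and the member that holds the E-box, *Slc43a1*, did not pass the test. The member that passed, *Slc7a5*, had no window. Whether either motif bears on expression was not tested. A match of letters is a description and not a binding site.

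Of 31 further transporters of amino acids at the plasma membrane, 13 were expressed enough to be tested and 2 passed the test, both higher. The median log2 fold change of the list was 0.11, and its sign turned with the processing (-0.086 without the replicate block, -0.028 without replicate 2, -0.15 with effective lengths). Both that rose were low. *Slc7a8*, which encodes LAT2, the other large neutral amino acid exchanger that pairs with Slc3a2, had 0.324, 0.517 and 0.333 TPM in wt/wt and 2.79, 2.19 and 1.14 TPM in fl/fl (log2 fold change 2.14 ± 0.34, SE, adjusted p = 0.00713 by edgeR). *Slc38a5*, which encodes the glutamine carrier SNAT5, had 0, 9 and 14 counts in wt/wt and 75, 91 and 110 counts in fl/fl (log2 fold change 3.43 ± 0.56, SE, adjusted p = 0.00786 by edgeR). *Slc38a5* was near the detection limit in wt/wt and entered the test only through its counts in fl/fl, and neither gene could be tested with at least 10 counts in every library. Both calls were lost without replicate 1 (adjusted p = 0.0271 for *Slc7a8* and 0.0168 for *Slc38a5*) and without replicate 2 (0.0341 and 0.0400), all by edgeR, and that of *Slc38a5* also without replicate 4 (0.0225). The erythroid, basophil, neutrophil and progenitor, and monocyte markers were higher in the same libraries. Within fl/fl, replicate 4 had the lowest erythroid and basophil sums and the highest neutrophil and progenitor sum, and it was the highest library for *Slc38a5* and the lowest for *Slc7a8*. The part of other cells in these rises was not tested. *Slc16a10*, an aromatic amino acid carrier, had a log2 fold change of 0.70 (adjusted p = 0.193 by edgeR), which was 0.38 without replicate 4 and 1.08 without replicate 2, and its highest library was fl/fl replicate 4 at 10.7 TPM against 4.79 and 4.24 TPM in the other fl/fl libraries. The most abundant of this list by TPM, the taurine carrier gene *Slc6a6* and the LAT4 gene *Slc43a2*, had log2 fold changes of -0.085 and 0.11, with adjusted p of 0.784 and 0.771 by edgeR.

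The transporters of amino acids inside the cell, in mitochondria and lysosomes, had 17 tested genes of 19 in the data, of which 1 fell, with a median log2 fold change of 0.021 that was -0.033 without the replicate block. This was *Sfxn1*, which encodes the mitochondrial serine carrier. It had 84.4, 76.4 and 72.8 TPM in wt/wt and 46.8, 48.0 and 39.4 TPM in fl/fl, without overlap, and a log2 fold change of -0.90 ± 0.14 (SE, adjusted p = 0.00618 by edgeR). The call was lost without replicate 1 (adjusted p = 0.0283), 2 (0.0113) or 4 (0.0188), with library size only (0.0119) and with effective lengths (0.0216), while the direction held. Its relative *Sfxn3* had a mean of 53.9 TPM in wt/wt and of 65.7 TPM in fl/fl, with a log2 fold change of 0.19 (adjusted p = 0.460 by edgeR). The genes of the mitochondrial carriers of ornithine, *Slc25a15*, and of basic amino acids, *Slc25a29*, had log2 fold changes of -0.83 and 0.78 with adjusted p of 0.0345 and 0.0887 by edgeR, neither past the threshold.

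Genes known to answer to amino acid shortage or stress went in both directions. Of 25 genes, 23 were tested, 4 rose and 2 fell, with a median log2 fold change of -0.035 that was 0.14 without replicate 4. *Atf3*, a stress-induced transcription factor, had 1.99, 2.46 and 5.64 TPM in wt/wt and 10.8, 12.4 and 103 TPM in fl/fl, the last in replicate 4, and rose by 3.13 on the log2 scale (adjusted p = 0.00189 by edgeR). *Asns*, which encodes asparagine synthetase, had 2.08, 1.64 and 2.75 TPM in wt/wt and 10.1, 8.61 and 11.6 TPM in fl/fl (log2 fold change 2.19 ± 0.24, SE, adjusted p = 0.00204 by edgeR). *Ppp1r15a*, which encodes a phosphatase subunit that acts on eIF2α, rose by 1.08 on the log2 scale (adjusted p = 0.00392 by edgeR), from 174 to 375 TPM in the means. The calls of *Atf3*, *Ppp1r15a* and *Cebpb* (below) rested on the replicate block, without which the adjusted p was 0.0324, 0.0269 and 0.0313 by edgeR. The call of *Ppp1r15a* was also lost without replicate 1 (0.0161) and with library size only (0.0107).

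The genes of this list that fell belong to serine synthesis. *Phgdh*, which encodes the first enzyme of that pathway, had 545, 181 and 137 TPM in wt/wt and 86.8, 86.7 and 97.0 TPM in fl/fl, and fell by 1.06 on the log2 scale (adjusted p = 0.00937 by edgeR). This call was lost without replicate 1 (adjusted p = 0.0391), without replicate 2 (0.0281) and with limma-trend (0.0119). It was also lost with effective lengths and with library size only, where no gene of this list passed as lower. *Psat1*, the next enzyme, fell by 1.06 (adjusted p = 0.00671 by edgeR), and *Cebpb*, a transcription factor, rose by 1.01 (adjusted p = 0.00689 by edgeR). The call of *Psat1* was lost without replicate 1 (adjusted p = 0.0271), without replicate 2 (0.0165) and with library size only (0.0128), and that of *Cebpb* without replicate 1 (0.0271), without replicate 4 (0.0130) and with library size only (0.0183), all by edgeR. *Psat1* and *Cebpb* were named after their values were seen. The transporter genes that the same response is known to raise include *Slc7a11*, *Slc38a2* and *Slc3a2*, none of which passed the test, as given above. This is not a full list, and the other members were not sorted by whether they answer to it. Among those others, *Slc7a5* passed the test and fell, with a log2 fold change of -1.53. The count for this list moved with the processing, from 6 genes (2 lower and 4 higher) to 4 without the replicate block (3 lower and 1 higher) and to none with offsets from effective lengths.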

How the data were processed

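RNA-seq libraries were made by the authors from sorted cells with the SMART-Seq v4 kit and sequenced single end. The deposited tables list, for 100583 transcripts, the estimated counts (not normalized), the TPM values and the effective lengths (another unit, in bases) that the authors obtained by transcript quantification. The submitters' processing notes and the methods name Salmon and GRCh38, whereas the identifiers are those of mouse transcripts and the columns those of kallisto.

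Estimated counts were summed by gene symbol with GENCODE M21 on GRCm38, which matched 100239 transcripts, and rounded. The unmatched ones held 0.129% to 0.169% of counts. Genes kept by filterByExpr were normalized by TMM and compared by edgeR 4.0.16 (quasi-likelihood) in R 4.3.3. The model held the replicate number as a blocking term, since the study's analyses were paired. Numbers did not pair the samples by the data: deviations from the group means correlated at -0.012, -0.020 and 0.050 between libraries of the same number, below the limit of 0.1. P-values were adjusted by Benjamini-Hochberg over all genes tested. Log2 CPM profiles used a prior count of 2. DESeq2 1.42.0 and limma 3.58.1 were among 14 alternatives. On simulated data of 15172 genes, edgeR recovered 32.8% of 198 genes changed by a log2 fold change of 1, with 4 false calls, and DESeq2 55.6% with 12, so a member that does not pass may still have changed. Libraries of a genotype differed by more than counting noise, their chi-square divided by degrees of freedom being 36.5 to 91.9. This cannot show whether they came from different mice.

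The members and the other lists were chosen with earlier results of these data known. All members were named, and from each other list the 3 genes with the smallest p and the 2 with the highest mean TPM. Pair ratios were compared by exact permutation. Counts were assigned to overlapping transcripts by a model, so transcript shares are less certain than gene sums. A further part of the sort gate is not reported here.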

Additional observations from a re-analysis of the deposited data

How the results depend on the processing

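Direction held for *Slc7a5*, *Slc1a5*, *Slc7a1*, *Slc7a6*, *Slc7a11*, *Slc38a1*, *Slc38a2* and *Slc43a1* in every alternative that could be run, and of 388 values for 28 named genes under alternatives, 318 kept direction and side of the threshold, 50 lost the call, 10 gained it and 10 changed sign. Those that changed sign were *Slc3a2* (from -0.12 to 0.18 without one replicate number, -0.011 without the block, -0.0022 with DESeq2 and with its size factors, -0.0015 with limma-trend, -0.17 with effective lengths), *Slc1a4* (from -0.030 to 0.35 without one replicate number, -0.052 without wt/wt replicate 1 and without the block) and *Slc43a2* (-0.15 with effective lengths). The difference in log2 ratio of *Slc38a1* to *Slc38a2* became 0.035 with the *Slc38a1* transcript of most counts. The cause of these changes was not tested.

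With the replicate block, 333 genes passed the threshold, 135 lower and 198 higher, and without the block, 387. The block changed no call among the 10 transporter genes, but moved the response genes from 6 to 4. Leaving out each number in turn, which also leaves fewer samples, gave 59 to 276 genes, 0 to 1 transporter genes, 0 to 1 of the other plasma membrane transporters, 0 of the intracellular ones, and 2 to 5 of the response genes. DESeq2 gave 1180 genes, with 2 transporter and 2 intracellular genes. Without a filter there were 902 genes and 2 transporter genes. An adjusted p below 0.05 alone gave 1212 genes, 3 transporter and 2 intracellular genes. With library size only there were 74 genes, 0 in each transporter list and 2 response genes. With effective lengths there were 32 genes, 8 lower and 24 higher, and 0 in all 4 lists. Without both wt/wt replicate 1 and the block, 1 of the other plasma membrane transporters and 3 response genes passed, and with at least 10 counts in every library, 0 of those transporters passed. For *Slc1a4* and *Slc43a1*, which had fewer than 10 counts in wt/wt replicate 1, depth limits what can be seen.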
